A study of Mus musculus with 20 samples.

Results

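The TRAV9 family is a set of near-identical V genes of the mouse T cell receptor (TCR) α locus. Its use by CD8+ T cells was followed across mice of 4 genotypes. Members were the in-frame TCRα clones, those whose CDR3 held neither a frameshift nor a stop codon, whose first listed V gene was TRAV9, TRAV9D or TRAV9N. The rule took 7578 of 212832 in-frame clones in 17 mice. Counted once for each V gene, J gene and CDR3 amino acid sequence in a mouse (a clonotype), these were 7370 of 197526 clonotypes. They carried 9 listed V genes of the 103 TRAV genes in the tables.

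All mice were on the B6 background, male and 9 to 12 weeks old. The 4 genotypes differ in proteasome subunits. WT mice (n = 4) have β5i and β5t, β5i-KO mice (n = 5) lack β5i, β5t-KO mice (n = 4) lack β5t, and BIT mice (n = 4) are homozygous for an allele that puts the β5t coding sequence in place of that of β5i. The BIT allele was made in several lines. The paper reports on a single line unless it says otherwise, and the labels do not name the line of a mouse. Total RNA came from TCRβ-high CD4-CD8+ T cells sorted to over 98% purity, from lymph nodes by the sample labels and from lymph nodes and spleens by the protocol. WT replicate 5 gave no TCRα table here, and β5t-KO replicate 5 and BIT replicate 3 were left out because they held only 24 and 475 in-frame clones, of which 1 and 12 were TRAV9. β5i is encoded by Psmb8 and β5t by Psmb11, and neither gene is read in TCR libraries, so genotypes rest on the labels.

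A TCRα chain is made when a V gene is joined to a J gene in a developing thymocyte, with bases trimmed and added at the join. The join forms CDR3, the loop that lies over the presented peptide, while the V gene itself encodes the other loops. The thymoproteasome, which contains β5t, cuts the peptides that cortical thymic epithelial cells present for positive selection of CD8+ T cells, and the immunoproteasome contains β5i instead. The comparison of genotypes asked whether a V family was used differently when these subunits were absent or exchanged.

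The last bases of each germline gene fix how its CDR3 begins, and they were used here to check the listed gene names. GENCODE vM39 on GRCm39 annotates 11 Trav9 genes on the plus strand of chromosome 14, spread over 884 kb, of which 10 are V genes and 1, Trav9n-1, is a pseudogene. Trav9d-1 lies farthest from the J genes and Trav9-4 nearest. The 5 distinct ends are given here, 40 bases each and 5′ to 3′, with the 13 bases that belong to CDR3 in capitals.
Trav9-1, chr14:53725985-53726024: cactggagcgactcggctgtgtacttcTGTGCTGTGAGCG
Trav9-2, chr14:53828932-53828971: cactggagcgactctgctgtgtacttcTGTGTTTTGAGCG
Trav9d-2, chr14:53130036-53130075: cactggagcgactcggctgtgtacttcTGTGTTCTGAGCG
Trav9d-3, chr14:53158530-53158569: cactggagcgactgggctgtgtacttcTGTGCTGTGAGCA
Trav9d-4, chr14:53221278-53221317: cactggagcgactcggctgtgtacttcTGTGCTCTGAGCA
Trav9-4 and Trav9d-1 end in the same 40 bases as Trav9-1, Trav9n-2 as Trav9d-2, Trav9n-3 as Trav9d-3, and Trav9n-4 as Trav9d-4. In protein letters the CDR3 starts with CAVS in Trav9-1, Trav9-4, Trav9d-1, Trav9d-3 and Trav9n-3, with CVLS in Trav9-2, Trav9d-2 and Trav9n-2, and with CALS in Trav9d-4 and Trav9n-4. Psmb11 lies on the same chromosome at chr14:54858890-54867013, 945 kb beyond the end of Trav9-4, whereas Psmb8 lies on chromosome 17. Any difference in sequence linked to the β5t-KO allele and the loss of β5t cannot be told apart in these mice. The paper places Psmb8 in the H-2 region, close to the MHC-II gene H2-Ab1. Sequence linked to the β5i-KO or BIT allele likewise cannot be told apart from the change in β5i.

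The 17 libraries held 1983032 to 8480570 TCRα reads. In-frame molecules, counted by unique molecular tags, numbered 13519 to 555786, and in-frame clonotypes 622 to 26272. β5t-KO mice held 622 to 7656 clonotypes, below the 9362 to 26272 of BIT mice, and WT mice held 2454 to 16876 and β5i-KO mice 4390 to 24843. Markers of other T cells that a CD8 sort could hold were near 0. The invariant NKT rearrangement (TRAV11 with TRAJ18) took at most 0.0458% of reads in any mouse, and the MAIT rearrangement (TRAV1 with TRAJ33) at most 0.147%.

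TRAV9 made up about 3.5% of clonotypes, and its share did not pass the test in any of the 6 comparisons between genotypes. The share was 3.50% ± 0.69 over all mice (SD, n = 17), which placed the family 10th of 19 TRAV subgroups. In WT mice the shares were 2.12%, 2.54%, 3.35% and 3.79% of clonotypes. In β5i-KO mice they were 2.28%, 2.68%, 3.79%, 3.98% and 4.30%. In β5t-KO mice they were 3.21%, 3.93%, 4.03% and 4.18%. The lowest 2 WT mice lay below all 4 β5t-KO mice, but the other WT mice overlapped them. In BIT mice the shares were 3.55%, 3.84%, 3.97% and 4.03%, the narrowest spread of the groups, and the highest WT mouse lay inside their range. Counting error was widest in β5t-KO replicate 2, where 26 TRAV9 clonotypes gave a 95% Wilson interval of 2.87% to 6.05%, and such intervals cover counting error only.

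WT mice averaged 2.95% ± 0.76 and BIT mice 3.85% ± 0.21 (SD, n = 4 each). The β5t-KO mean was 3.84% ± 0.43 (SD, n = 4), and the β5i-KO mean 3.40% ± 0.88 (SD, n = 5). BIT exceeded WT by 0.31 ± 0.15 on the log2 scale (SE), with an adjusted p of 0.108 by edgeR's quasi-likelihood test over 19 subgroups. β5t-KO exceeded WT by 0.25 ± 0.18 (adjusted p = 0.310 by edgeR), and β5i-KO exceeded WT by 0.18 ± 0.15 (adjusted p = 0.388 by edgeR). These 3 comparisons share the WT mice. BIT differed from β5t-KO by 0.06 ± 0.17 (edgeR adjusted p = 0.825) and from β5i-KO by 0.13 ± 0.14 (edgeR adjusted p = 0.838), and β5t-KO differed from β5i-KO by 0.08 ± 0.17 (edgeR adjusted p = 0.776). The same fits called 21.1% of the subgroups between β5t-KO and WT, 10.5% between BIT and WT, 10.5% between BIT and β5t-KO, 15.8% between β5t-KO and β5i-KO, and 0% in the other 2 comparisons, none of them TRAV9. The labels do not name litters or batches, so these p-values measure the spread between mice. Without WT replicate 4, the WT mouse with the highest share, BIT exceeded WT by 0.45 (edgeR adjusted p = 0.0451), and in a fit of these 2 groups alone by 0.30 (edgeR adjusted p = 0.0403). By DESeq2 the difference was 0.16 ± 0.14 (adjusted p = 0.421).

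**Figure D1:**
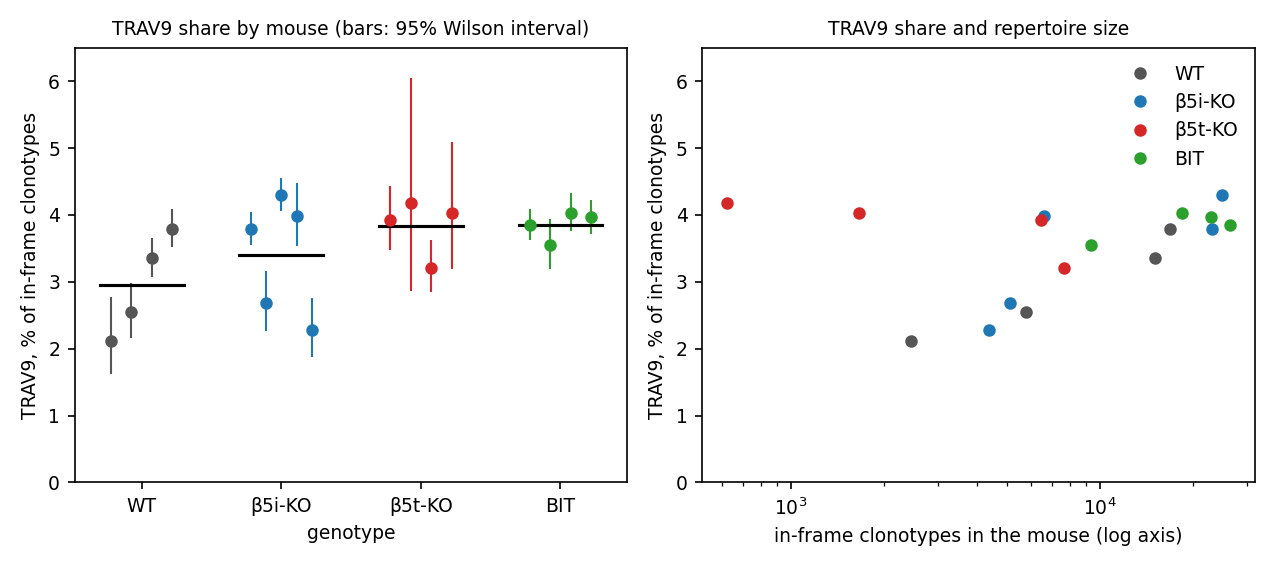
TRAV9 share of in-frame clonotypes in each of 17 mice by genotype (left; points are mice, bars 95% Wilson intervals, black lines group means) and against the number of in-frame clonotypes on a log axis (right). The 4 BIT mice sit between 3.55% and 4.03%, and the WT mice between 2.12% and 3.79%; the smallest repertoires, of β5t-KO mice, have shares above 4%.

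The share was set against the size of the repertoire in each mouse. Among WT and β5i-KO mice the smallest repertoires had the lowest shares, 2.12% in WT replicate 1 (2454 clonotypes) and 2.28% in β5i-KO replicate 5 (4390 clonotypes). Among β5t-KO mice the smallest repertoires had the highest shares, 4.18% in replicate 2 (622 clonotypes) and 4.03% in replicate 4 (1661 clonotypes). Over 17 mice Pearson's r between the share and the log10 number of clonotypes was 0.26 (permutation p = 0.325, the same after adjustment over 2 relations), and Spearman's rho was 0.25 (permutation p = 0.342, also after adjustment). Without those 2 β5t-KO mice, the farthest from the median, r was 0.80 and rho 0.71, so the pooled value rests on them. The permutations pooled the 4 genotypes, which differ in repertoire size. On deviations from the group means r was 0.45 (n = 17). Within genotypes it was 0.97 in WT, 0.79 in β5i-KO, 0.78 in BIT and -0.77 in β5t-KO mice, on 4 or 5 mice each, and was not tested. With every library thinned to 13519 molecules, the share was 2.19% ± 0.51 in WT and 2.61% ± 0.15 in BIT mice, 3.30% ± 1.01 in β5t-KO mice (SD, n = 4 each) and 2.65% ± 0.80 in β5i-KO mice (SD, n = 5). After thinning, the log2 difference between BIT and WT was 0.19 ± 0.19 (adjusted p = 0.398 by edgeR). The thinning was a single random draw that evened molecules but not clonotypes, of which a library still held 556 to 9048.

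The members fell unevenly on the listed genes. TRAV9-1 was listed first for 1796 clonotypes, TRAV9D-3 for 1190, TRAV9D-2 for 1011, TRAV9N-3 for 973, TRAV9-4 for 889, TRAV9N-4 for 572, TRAV9-2 for 493, TRAV9D-1 for 414 and TRAV9D-4 for 32. TRAV9N-2 headed no in-frame clone and 1 non-productive one. These names carry uncertainty, since 1418 of the 7578 clones (18.7%) listed several V genes, 1138 of them the pair TRAV9D-3 and TRAV9N-3. The family itself was secure, with only 3 clones that also listed a V gene of another subgroup.

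The bases of the clones went against 1 of the names. The capitals of Trav9-2 and of Trav9d-2 in the germline ends above differ in the bases but not in the protein letters, and 716 of the 1049 clones assigned to TRAV9D-2 (68.3%) carried the bases of Trav9-2. Pooled over the mice of a genotype, this share lay between 67.6% in β5i-KO and 71.6% in β5t-KO mice. The V reference used in the deposited alignments extended 23 bases from the CDR3 start for TRAV9-2 and 31 to 33 bases for the other listed genes. The clones were therefore also grouped by the CDR3 start, which joins TRAV9-2 with TRAV9D-2.

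Of the 9 listed genes, 8 passed the filter of 5 clonotypes in 4 libraries, and none was called in any comparison. Among all 90 TRAV genes tested, edgeR called 6.67% between β5t-KO and WT, 1.11% between β5i-KO and WT, 2.22% between BIT and WT, 7.78% between BIT and β5t-KO, 0% between BIT and β5i-KO and 6.67% between β5t-KO and β5i-KO. At an unadjusted p under 0.05 by edgeR, TRAV9N-3 was higher in β5t-KO and TRAV9-2 in β5i-KO, each against WT, and TRAV9D-3 and TRAV9N-3 were higher in BIT than in WT. Against β5i-KO, β5t-KO mice had more TRAV9N-3 and less TRAV9-2 by the same measure. Over all 90 genes, edgeR gave from 13.3% to 22.2% at an unadjusted p under 0.05 in these 4 comparisons. DESeq2 also called 0 TRAV9 genes in all 6 comparisons. All 8 tested genes had fitted differences above 0 between BIT and WT by edgeR, beside 68.9% of all 90 genes. Their median was 0.32 on the log2 scale, against 0.13 over all 90 genes. TRAV9-1 and TRAV9D-1 were near 0, at 0.02 and 0.03. By DESeq2, 6 of the 8 were above 0, beside 45.6% of all 90 genes.

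TRAV9N-3 had the smallest p of the family between β5t-KO and WT. It made up 0.277%, 0.326%, 0.384% and 0.462% of clonotypes in WT mice. In β5t-KO mice it made up 0.482%, 0.542%, 0.562% and 0.745%. In BIT mice it made up 0.459%, 0.507%, 0.552% and 0.650%, and in β5i-KO mice 0.159% to 0.545%. β5t-KO exceeded WT by 0.69 ± 0.26 on the log2 scale, with an edgeR adjusted p of 0.121. In 3 of these β5t-KO and WT libraries the gene rested on 3, 8 and 9 clonotypes. Several V genes were listed for 31.1% of the TRAV9N-3 clones.

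**Figure D2:**
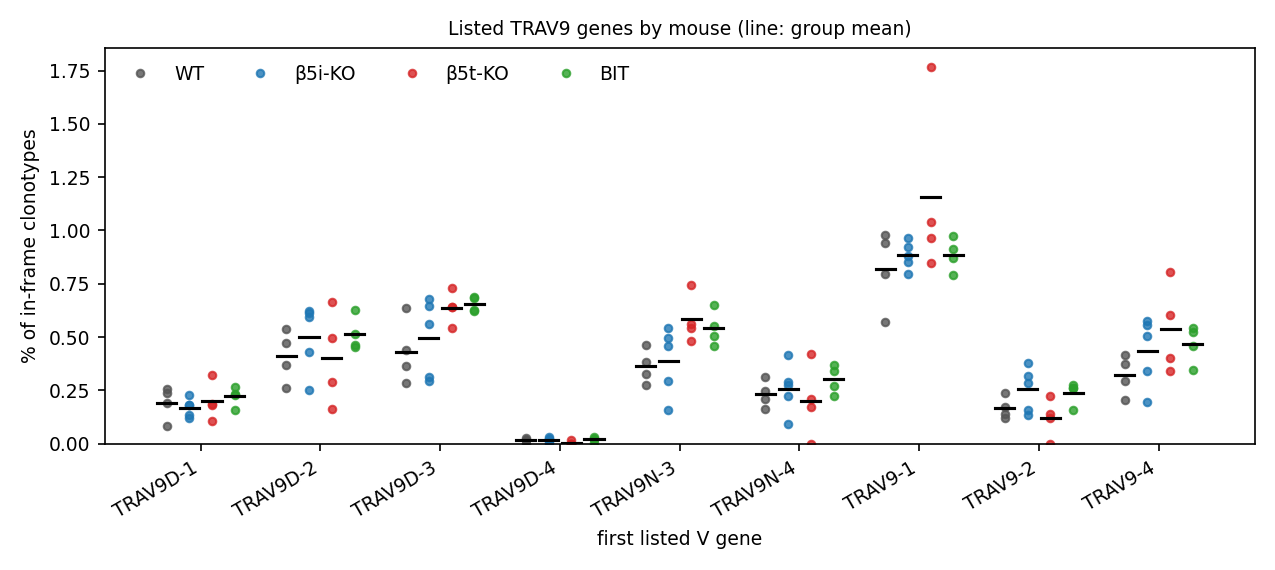
Share of in-frame clonotypes of each of the 9 listed TRAV9 genes, in chromosome order; points are mice coloured by genotype, and black lines are group means. TRAV9-1 is the most used gene in every group.

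Clones were also classed by the first 8 bases of CDR3, which end within the third codon and leave the fourth residue unread. A class named CAVS, CVLS or CALS can therefore hold clones without the S, such as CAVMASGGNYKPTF listed below. The CAVS class made up most of the family in every genotype. CAVS clonotypes were 70.2% ± 7.7 of the family (SD, n = 17), CVLS 17.8% ± 4.6 and CALS 7.33% ± 2.57, and in 4.68% ± 2.32 the first 8 bases were trimmed or changed. CAVS clonotypes were 1.47%, 1.76%, 2.28% and 2.46% of all clonotypes in WT mice. They were 2.36%, 2.59%, 3.01% and 4.02% in β5t-KO mice and 2.45%, 2.63%, 2.65% and 2.79% in BIT mice. β5t-KO replicate 2, with 26 members, gave the highest value. CAVS was higher in β5t-KO than in WT by a log2 difference of 0.41 ± 0.17 (edgeR adjusted p = 0.158) and in BIT than in WT by 0.33 ± 0.15 (edgeR adjusted p = 0.172). CVLS was lower in β5t-KO than in β5i-KO, with a log2 difference of -0.56 ± 0.25 (edgeR adjusted p = 0.151). None of the 4 classes was called in any comparison by edgeR. At an unadjusted p under 0.05 by edgeR, CAVS was higher in β5t-KO and in BIT than in WT, and CVLS was lower in β5t-KO than in β5i-KO, beside 20.9%, 18.6% and 22.1% of 86 features in these 3 comparisons. With the family split this way, edgeR called 5.81% of 86 features between β5t-KO and WT, 1.16% between β5i-KO and WT, 2.33% between BIT and WT, 8.14% between BIT and β5t-KO, 0% between BIT and β5i-KO and 6.98% between β5t-KO and β5i-KO. This grouping was chosen after seeing the data.

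The genes of the family joined different J genes. J genes are numbered against the direction of the chromosome, so high TRAJ numbers lie nearest to the V genes. TRAV9-4, the member closest to the J genes, joined TRAJ genes with a mean number of 36.8 ± 4.3 (SD, n = 17 mice), and TRAV9-1 29.0 ± 1.6 (SD, n = 17). TRAV9-2 had a mean of 30.6 ± 3.5 (SD, n = 14 mice with at least 5 such clonotypes). The distal copies were lower, with 19.4 ± 2.2 for TRAV9D-3 (SD, n = 16), 21.0 ± 3.4 for TRAV9N-3 (SD, n = 16) and 23.3 ± 2.6 for TRAV9N-4 (SD, n = 14). TRAV9-4 had a higher mean than TRAV9-1 in 16 of 17 mice, and TRAV9-1 a higher mean than TRAV9D-3 in 16 of 16 and than TRAV9N-3 in 15 of 16. TRAV9-1 and TRAV9-2 overlapped, with TRAV9-1 higher in 4 of 14 mice. The most distal gene, TRAV9D-1, departed from this order with 27.3 ± 4.4 (SD, n = 14), and its germline end cannot be told from that of Trav9-1.

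The J partners also split the clones assigned to TRAV9D-2 by their bases. Those with the bases of Trav9d-2 had a mean TRAJ number of 18.8 ± 2.3 (SD, n = 13 mice with at least 5 such clonotypes). Those with the bases of Trav9-2 had a mean of 30.4 ± 3.5 (SD, n = 16), close to the 30.8 ± 3.2 (SD, n = 14) of clonotypes that were both assigned to TRAV9-2 and carried its bases. In all 13 mice with both kinds, the kind with Trav9-2 bases had the higher mean.

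**Figure D3:**
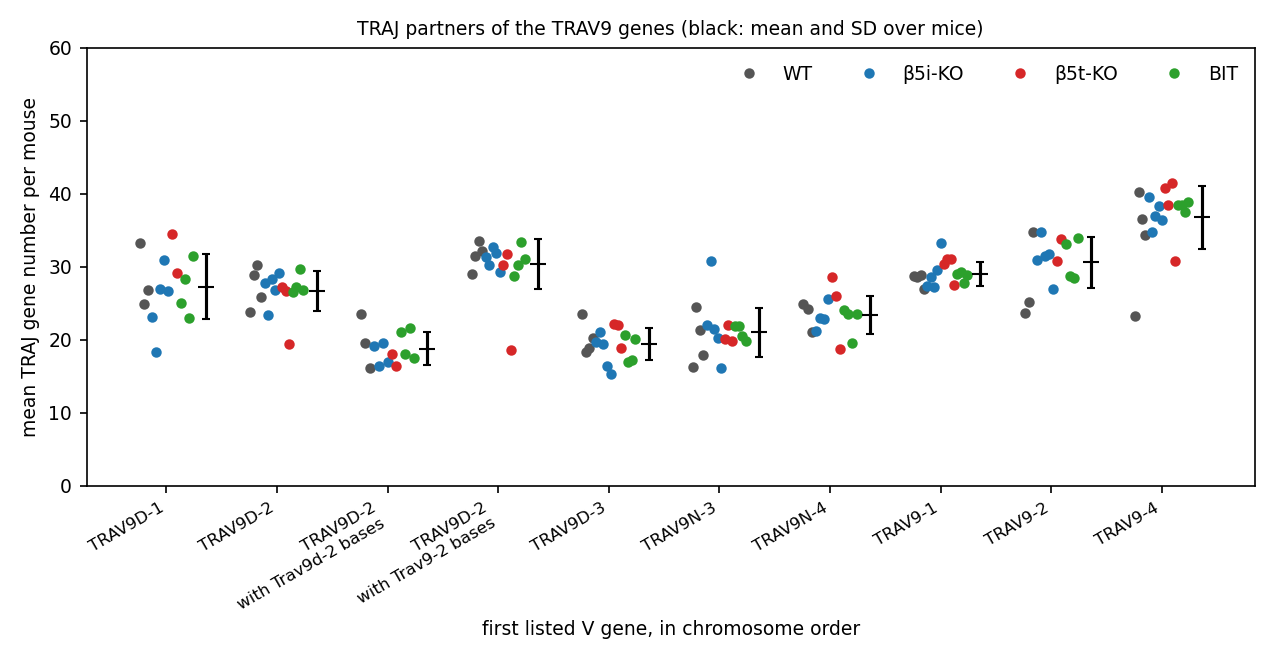
Mean TRAJ gene number of each listed TRAV9 gene per mouse (points, coloured by genotype; mice with at least 5 such clonotypes), in chromosome order from the most distal gene; black bars are mean and SD over mice. The clones assigned to TRAV9D-2 separate into a set near 18.8 and a set near 30.4 by the germline bases they carry, and TRAV9-4 is highest at 36.8.

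The family as a whole used slightly lower TRAJ numbers than the rest of the repertoire, with a mean of 26.7 ± 1.4 against 28.8 ± 1.0 for all other clonotypes (SD, n = 17). The TRAV9 mean was lower in 17 of 17 mice (two-sided sign-flip permutation p = 4e-05, adjusted p = 1e-04 over 5 such comparisons). All 43 TRAJ genes in the tables were used. The most used were TRAJ22 with 396 clonotypes, TRAJ31 with 386, TRAJ23 with 374, TRAJ26 with 367 and TRAJ30 with 326, the last level with TRAJ9, and the first 5 together took 25.1% of the family. TRAJ31 took 5.43% ± 1.95 of the family against 3.99% ± 0.40 of all clonotypes, and was higher in the family in 14 of 17 mice. TRAJ22 took 5.27% ± 1.39 of the family against 6.08% ± 0.64 of all clonotypes, and was higher in the family in 5 of 17 mice.

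No TRAV9 join passed the test between genotypes. Of 576 pairs of TRAV subgroup and TRAJ gene tested by edgeR, 40 were TRAV9 pairs, and 0 of these were called in each of the 6 comparisons. Over all pairs, edgeR called 2.26% between β5t-KO and WT, 0.174% between BIT and WT, 2.08% between BIT and β5t-KO, 2.08% between β5t-KO and β5i-KO, and 0% in the other 2 comparisons. At an unadjusted p under 0.05 by edgeR, β5t-KO had 2 TRAV9 pairs below WT, β5i-KO had 1 above WT and BIT had 2 above WT. By the same measure, BIT had 2 pairs above and 1 below β5t-KO, and 1 above and 1 below β5i-KO, and β5t-KO had 1 below β5i-KO. These were 2.5% to 7.5% of the 40 TRAV9 pairs. Over all 576 pairs the shares at an unadjusted p under 0.05 were 13.5% for β5t-KO against WT, 8.16% for β5i-KO against WT, 9.03% for BIT against WT, 13.7% for BIT against β5t-KO, 3.82% for BIT against β5i-KO and 13.4% for β5t-KO against β5i-KO. DESeq2 called 0 TRAV9 pairs in all 6 comparisons.

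Rearrangements that encode no chain were counted apart from the members. Such non-productive transcripts can come from the other TCRα allele of a cell. TRAV9 made up 687 of 23105 non-productive clonotypes (2.97%) and 3.73% of in-frame clonotypes when mice were pooled. Per mouse the mean was 3.03% ± 1.00 of non-productive against 3.50% ± 0.69 of in-frame clonotypes (SD, n = 17). The in-frame share was higher in 13 of 17 mice, which did not pass the test (two-sided sign-flip permutation p = 0.0673, adjusted p = 0.0842 over 5 comparisons). The non-productive share was 3.00% ± 0.74 in WT and 3.00% ± 0.24 in BIT mice, 3.42% ± 1.93 in β5t-KO mice (SD, n = 4 each) and 2.77% ± 0.74 in β5i-KO mice (SD, n = 5). By edgeR the largest difference was -0.29 ± 0.29 on the log2 scale between β5t-KO and WT (adjusted p = 0.819 by edgeR), and 0% of the 20 subgroups tested were called in any comparison. The β5t-KO mean was above the WT mean although the fitted difference was below 0, and β5t-KO replicate 2 held 4 TRAV9 sequences among 64 (6.25%).

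The listed genes were not equally frequent in the 2 kinds of rearrangement. TRAV9-1 made up 27.0% ± 5.5 of in-frame TRAV9 clonotypes and 13.8% ± 8.2 of non-productive ones (SD, n = 17), and was higher in frame in 16 of 17 mice (two-sided sign-flip permutation p = 4e-05, adjusted p = 0.00036 over 9 genes). TRAV9D-3 made up 15.6% ± 2.4 and 8.73% ± 6.42, higher in frame in 15 of 17 mice (permutation adjusted p = 0.00144). TRAV9N-3 made up 13.1% ± 2.8 and 7.18% ± 6.36, higher in frame in 14 of 17 mice (permutation adjusted p = 0.00276). These 3 genes all encode a CAVS start. TRAV9D-1, which encodes CAVS too, did not pass, with 5.57% ± 1.59 of in-frame and 5.43% ± 4.59 of non-productive ones (permutation adjusted p = 0.915). TRAV9-2 and TRAV9D-2, which encode CVLS, did not pass either (permutation adjusted p = 0.217 and 0.163).

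TRAV9-4, which also encodes CAVS, went the other way, with 12.4% ± 2.9 of in-frame and 20.9% ± 16.4 of non-productive TRAV9 clonotypes, lower in frame in 12 of 17 mice (permutation adjusted p = 0.0197). TRAV9D-4 was rare in frame when mice were pooled, with 32 of 7370 clonotypes (0.434%, 95% Wilson interval 0.308% to 0.612%). It held 22 of 687 pooled non-productive ones (3.20%, 2.12% to 4.80%). Per mouse, its mean was 0.405% ± 0.349 of in-frame and 5.49% ± 12.7 of non-productive TRAV9 clonotypes (SD, n = 17). The share was lower in frame in 9 of 17 mice and higher in 4 (permutation adjusted p = 0.0255). With 1 mouse left out, the non-productive mean exceeded the in-frame mean by 2.28 to 5.47 percentage points. Both calls held when each mouse was left out in turn, with adjusted p up to 0.0402 and 0.0492. TRAV9N-4 was lower in frame in 11 of 17 mice (permutation adjusted p = 0.0447), and the call was lost, with an adjusted p up to 0.0906, on leaving out any of 11 mice. Each mouse counted equally in these tests, although a mouse held from 4 to 112 non-productive TRAV9 clonotypes. Gene shares within a family sum to a whole, so a higher share of one lowers the others. How much the V assignment differs between in-frame and non-productive clones was not tested, and this comparison was chosen after seeing the data.

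CDR3 length did not pass the test between genotypes. The mean was 13.7 ± 0.1 residues in TRAV9 clonotypes over 17 mice (SD), and group means lay between 13.63 residues in BIT and 13.68 residues in β5i-KO mice. The largest difference was -0.06 ± 0.07 residues between BIT and β5i-KO (limma adjusted p = 0.932). Among 13 subgroups with at least 10 clonotypes in every mouse, limma called 15.4% in each of the 3 comparisons of β5t-KO with another group and 0% in the other 3, none of them TRAV9. TRAV9 clonotypes were 0.03 ± 0.14 residues longer than all others in the same mouse (SD of the difference, n = 17, two-sided sign-flip permutation p = 0.443, also after adjustment), and longer in 10 of 17 mice. Of TRAV9 clonotypes 35.6% had 14 residues and 26.3% had 13, against 30.2% and 22.9% of all clonotypes, when mice were pooled. TRAV9D-3 clonotypes had a pooled mean of 13.29 residues, shorter than the 13.79 residues of TRAV9-1. Clonotypes of TRAV9N-3, which has the same germline end as TRAV9D-3, had 13.73 residues. Several V genes were listed for 67.6% of TRAV9D-3 and 31.1% of TRAV9N-3 clones, and the part of naming in these lengths was not tested.

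The bases between the V and J segments of CDR3 gave the only call on the family between genotypes in the main fits, and the call depended on how the V end was read. As aligned in the deposited tables, the mean was 2.04, 2.28, 2.30 and 2.51 bases in β5t-KO mice and 2.58, 2.63, 2.73, 2.77 and 2.93 bases in β5i-KO mice. These groups did not overlap. β5t-KO had fewer bases than β5i-KO, with a difference of -0.44 ± 0.11 (limma adjusted p = 0.0105), and TRAV9 was the only one of 13 subgroups called there (7.69%). In the other 5 comparisons limma called 0% of the 13 subgroups. For TRAV9, β5t-KO differed from WT by -0.27 ± 0.12 bases (limma adjusted p = 0.249) and BIT differed from β5t-KO by 0.28 ± 0.12 bases (limma adjusted p = 0.121).

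The aligned values depended on the gene name. Clonotypes assigned to TRAV9-2, whose reference ended early, had a mean of 9.17 bases, while the other listed genes lay between 1.68 and 2.90. TRAV9-2 made up 3.36% ± 2.83 of TRAV9 clonotypes in β5t-KO mice and 7.22% ± 1.28 in β5i-KO mice (SD, n = 4 and 5). With the V end taken instead as the longest match to the 13 germline bases and their palindromic copy, TRAV9-2 had a mean of 2.49 bases. On that reading the means were 1.81, 2.13, 2.33 and 2.37 bases in β5t-KO mice and 2.13, 2.16, 2.38, 2.43 and 2.43 bases in β5i-KO mice. The groups then overlapped, with a difference of -0.15 ± 0.12 (limma adjusted p = 0.898). Without clones assigned to TRAV9-2 the difference was -0.18 ± 0.08 (limma adjusted p = 0.250). Both readings were chosen after seeing the data. The call was also lost with clones of at least 2 molecules (-0.35 bases, limma adjusted p = 0.102) and by an exact permutation test (p = 0.0159, adjusted p = 0.0952).

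**Figure D4:**
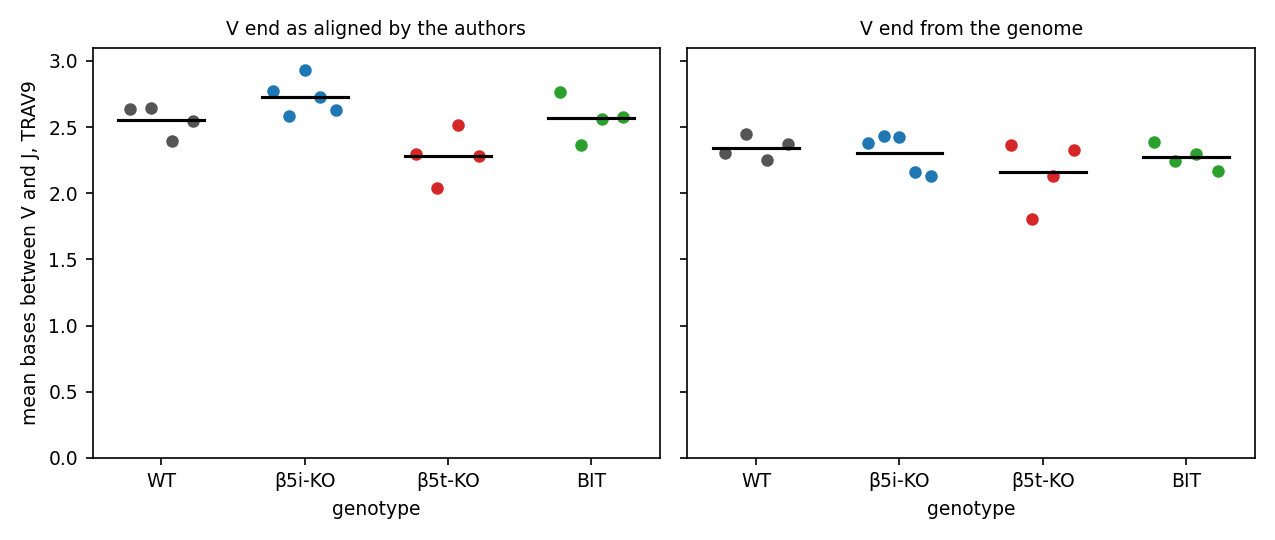
Mean number of bases between V and J in the TRAV9 clonotypes of each mouse by genotype, with the V end as aligned in the deposited tables (left) and as matched to the genome (right); points are mice and black lines group means. The β5t-KO and β5i-KO mice do not overlap on the left (difference -0.44) and overlap on the right (difference -0.15).

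TRAV9 clonotypes were small. A TRAV9 clonotype carried 0.496 times as many molecules as the other clonotypes of the same mouse (geometric mean over 17 mice), and fewer in 17 of 17 mice (two-sided sign-flip permutation p = 4e-05, adjusted p = 1e-04 over 5 comparisons). Against the mean of its library the family stood at -0.99 ± 0.23 on the log2 scale (SD, n = 17), the lowest of 13 subgroups, while TRAV12 was the highest at 0.26. The share of molecules was accordingly lower than that of clonotypes, 1.38% ± 0.45 in WT and 2.02% ± 0.08 in BIT mice, 1.84% ± 0.50 in β5t-KO mice (SD, n = 4 each) and 1.96% ± 0.76 in β5i-KO mice (SD, n = 5). Clonotypes seen as a single molecule made up 12.9% ± 14.1 of TRAV9 and 9.12% ± 11.1 of other clonotypes, higher for TRAV9 in 13 of 17 mice (permutation p = 0.00928, adjusted p = 0.0155). Molecules report RNA as well as cells, so more cells and more RNA in each cell cannot be told apart here.

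Relative clone size did not pass the test between genotypes. The value was on the log2 scale -1.12 ± 0.15 in WT and -0.93 ± 0.08 in BIT mice, -1.09 ± 0.27 in β5t-KO mice (SD, n = 4 each) and -0.84 ± 0.27 in β5i-KO mice (SD, n = 5). β5i-KO exceeded WT by 0.28 ± 0.13 (limma adjusted p = 0.395), and BIT exceeded WT by 0.19 ± 0.14 (limma adjusted p = 0.447). β5t-KO differed from β5i-KO by -0.24 ± 0.13 (limma adjusted p = 0.198), and by -0.37 without β5t-KO replicate 2 (limma adjusted p = 0.0270). Limma called 30.8% of the 13 subgroups between BIT and β5t-KO, 30.8% between β5t-KO and β5i-KO and 0% in the other 4 comparisons.

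**Figure D5:**
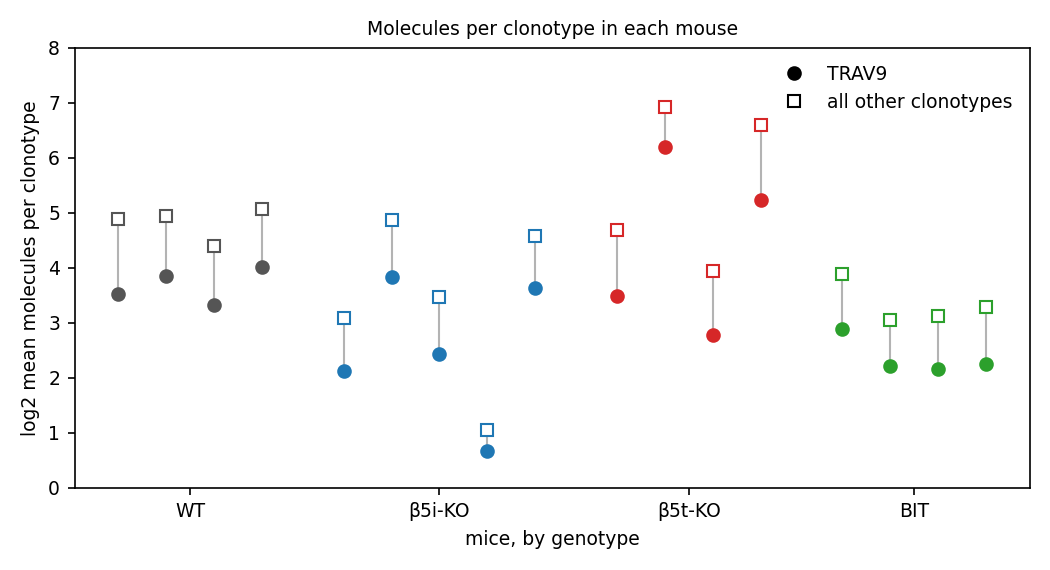
Log2 of the mean number of molecules per clonotype in each of 17 mice, for TRAV9 (filled circles) and for all other clonotypes (open squares), joined by a line within a mouse. TRAV9 lies below the other clonotypes in 17 of 17 mice, and β5i-KO replicate 4, the library with 13519 molecules, has the lowest values of both.

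Most TRAV9 sequences were private to a mouse. Pooled over the copies, 5210 distinct combinations of TRAJ gene and CDR3 were seen, of which 4141 occurred in 1 mouse and 1069 (20.5%) in 2 or more. For all TRAV subgroups together 26.2% occurred in 2 or more mice. Among the other duplicated families it was 20.9% in TRAV6, 21.3% in TRAV13 and 23.3% in TRAV4, near the TRAV9 value. In TRAV7 it was 26.8%, in TRAV14 30.4% and in TRAV12 32.0%. The most widespread TRAV9 sequence was found in 12 mice, and 7 were found in at least 9. The Morisita-Horn index, which compares the read shares of sequences in a pair of libraries and is 0 where none is shared, averaged 0.126 between BIT mice, 0.0541 between β5i-KO mice, 0.0427 between WT mice and 0.0247 between β5t-KO mice within TRAV9. Over the sequences of all subgroups it averaged 0.719 between β5t-KO mice, 0.662 between BIT mice, 0.501 between β5i-KO mice and 0.498 between WT mice, so β5t-KO mice had the lowest mean within TRAV9 and the highest over all sequences. This index depends on how many clonotypes a library holds, and was not tested.

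The 5 most widespread and the 5 most abundant sequences had 1 in common. The bases of the most common nucleotide form of each are given here. Capitals mark the bases that the deposited alignment gave to the V gene.
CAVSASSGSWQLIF with TRAJ22: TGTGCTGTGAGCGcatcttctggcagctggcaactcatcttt
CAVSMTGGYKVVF with TRAJ12: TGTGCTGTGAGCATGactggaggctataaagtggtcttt
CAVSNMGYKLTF with TRAJ9: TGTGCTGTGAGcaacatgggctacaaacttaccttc
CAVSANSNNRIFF with TRAJ31: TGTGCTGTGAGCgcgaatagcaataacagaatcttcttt
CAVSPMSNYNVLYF with TRAJ21: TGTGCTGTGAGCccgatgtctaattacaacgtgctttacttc
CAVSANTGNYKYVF with TRAJ40: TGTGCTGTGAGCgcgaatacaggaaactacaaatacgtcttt
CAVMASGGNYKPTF with TRAJ6: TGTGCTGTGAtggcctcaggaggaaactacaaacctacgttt
CAVVDYSNNRLTL with TRAJ7: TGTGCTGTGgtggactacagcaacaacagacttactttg
A sequence of 15 residues with TRAJ4: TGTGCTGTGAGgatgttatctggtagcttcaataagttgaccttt
The first 5 were those found in most mice, in 12, 10, 9, 9 and 9 of 17. In the first 3 the aligned V segment met the J segment with 0 bases between, and the other 2 had 2 and 3. For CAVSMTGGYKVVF, assigned to TRAV9N-3, the alignment gave 15 bases to V, whereas the germline gene holds 13 bases of CDR3. Its last aligned bases thus lie past the end of the gene.

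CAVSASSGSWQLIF was both widespread and abundant. It was at 0, 46.9, 56.7 and 100.1 CPM (in-frame reads scaled to a common library total) in WT mice, at 0, 0, 0, 119 and 146 CPM in β5i-KO mice, at 0, 140, 160 and 850 CPM in β5t-KO mice and at 34.1, 43.7, 44.8 and 52.5 CPM in BIT mice. The BIT mice were alike and the other groups each held a mouse without a read of it. BIT mice also held 9362 to 26272 clonotypes, and the part of repertoire size in this was not tested. It was assembled from 6 nucleotide forms under TRAV9-1, TRAV9-4, TRAV9D-1 and TRAV9D-3. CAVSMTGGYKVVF was assigned to TRAV9N-3 only, had 1 nucleotide form and was found in 10 mice, among them 4 of 4 BIT mice at 32.1, 32.6, 81.6 and 177 CPM and 1 of 4 β5t-KO mice at 133 CPM. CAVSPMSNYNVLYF was found in 3 of 4 WT mice, at 37.2, 45.1 and 125 CPM, in 4 of 5 β5i-KO mice at 15.3 to 229.7 CPM, in 2 of 4 BIT mice at 6.96 and 12.1 CPM, and in 0 of 4 β5t-KO mice. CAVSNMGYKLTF was found in 9 mice of all 4 genotypes, up to 242 CPM in WT and 239 CPM in β5t-KO mice, and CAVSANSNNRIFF in 9 mice, among them 4 of 4 BIT mice at 3.38 to 145 CPM.

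The other sequences with the highest mean CPM were high in a single β5t-KO mouse. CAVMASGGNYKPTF stood at 3304 CPM (64 molecules) and CAVVDYSNNRLTL at 2252 CPM (162 molecules) in β5t-KO replicate 2, the smallest repertoire, and both were found in no other mouse. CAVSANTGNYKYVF stood at 1522 CPM in β5t-KO replicate 2 and at no more than 65.7 CPM in the other 4 mice that held it. The 15-residue sequence with TRAJ4 stood at 1686 CPM in β5t-KO replicate 4 and at 16.5 CPM in BIT replicate 1.

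No TRAV9 sequence passed the test for abundance. Recurring sequences, at 10 CPM or more in at least 3 mice of a group, numbered 5168, of which 88 were TRAV9. Of these 88, 44 passed this filter through BIT mice alone, 29 through β5i-KO mice alone and 6 through WT mice alone, and 1 reached it in β5t-KO mice. A sequence that passed through 1 group was chosen for being high there, so counts of differences over the 88 are not evidence about the family. edgeR called 0 of the 88 in each comparison, and over all sequences 0.0774% between β5t-KO and WT, 0.0193% between β5i-KO and WT, 0.0387% between BIT and WT, 0.116% between BIT and β5t-KO, 0% between BIT and β5i-KO and 0.271% between β5t-KO and β5i-KO. At an unadjusted p under 0.05, edgeR gave 8 sequences above and 39 below WT in β5t-KO mice, 16 and 4 for β5i-KO against WT, 24 and 4 for BIT against WT, 53 and 0 for BIT against β5t-KO, 13 and 5 for BIT against β5i-KO, and 3 and 47 for β5t-KO against β5i-KO. In the same order these were 53.4%, 22.7%, 31.8%, 60.2%, 20.5% and 56.8% of the 88, beside 43.3%, 22.5%, 22.4%, 49.9%, 13.7% and 47.3% of all 5168. DESeq2 called 43, 12, 15, 45, 6 and 48 of the 88 in the same order of comparisons, and 2235, 932, 778, 2552, 364 and 2368 of all 5168.

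Across the 17 mice the TRAV subgroup whose share was most like that of TRAV9 was TRAV6, with a Spearman correlation of 0.84. TRAV19 followed with 0.73 and TRAV5 with 0.59. TRAV12, the largest subgroup with 24.6% ± 3.0 of clonotypes (SD, n = 17), ran against it at -0.78. These correlations describe 17 points that share their libraries, and the shares of a library sum to a whole.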

How the data were processed

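TCRα libraries of sorted CD8+ T cells had been made from total RNA with a SMARTer mouse TCR profiling kit, which tags molecules before amplification. The authors assembled clones with MiXCR, whose version is not given in the sources used here, and deposited for each mouse the counts of reads and of unique molecules of every clone, with listed V and J genes, aligned segment ends and CDR3 sequences. The submitters' processing notes name mm10, and germline bases and positions were read here from GRCm39 with GENCODE vM39, so no coordinates were mixed. PCR reads are not independent molecules, so intervals cover counting error only.

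The members and lists were chosen with earlier results of these data known. Clonotypes (first V gene, first J gene, CDR3 amino acids) were counted per mouse and tested in 1 fit of 17 mice by edgeR's quasi-likelihood test, with all in-frame clonotypes as library size, a filter of 5 clonotypes in 4 libraries, and Benjamini-Hochberg adjustment over all features at a threshold of 0.05. Non-productive clonotypes were counted by CDR3 nucleotides. Sequences were tested on reads at 10 CPM or more in at least 3 mice of a group. Mean length, bases between V and J and log2 molecules per clonotype of subgroups with at least 10 clonotypes in every mouse were tested by limma. TRAV9 was compared with other clonotypes of the same mouse by two-sided sign-flip permutation tests. Every TRAV9 gene was described, with the 5 most used TRAJ genes, the 5 sequences of highest mean CPM, the 5 in most mice and the 3 subgroups most alike by Spearman correlation. The alternatives were leaving out each mouse, adding BIT replicate 3, TMM, DESeq2, other filters, units, weights and depths, and a replicate block. The scripts were tested on simulated data. Tools were Python 3.11.15, NumPy 2.4.6, pandas 2.3.3, SciPy 1.17.1, Matplotlib 3.10.9, R 4.3.3, edgeR 4.0.16, limma 3.58.1 and DESeq2 1.42.0.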

Additional observations from a re-analysis of the deposited data

Results flagged for a closer look

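Of 80 groups of mice checked over 20 measures, 5 held a mouse far from the others of its genotype, where chance flags about 1 in 20 groups. The molecules per TRAV9 clonotype, relative to the library mean on the log2 scale, stood apart at -1.34 in WT replicate 1 and at -0.36 in β5i-KO replicate 4, the library with the fewest molecules, in which 64.3% of TRAV9 clonotypes were seen as 1 molecule. The mean TRAJ number of TRAV9 stood apart at 28.4 in β5i-KO replicate 5 and at 23.3 in β5t-KO replicate 4. The share of TRAV9-2 stood apart at 0.160% of clonotypes in BIT replicate 2.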

How the results depend on the processing

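Of the values recomputed with 1 mouse left out, 789 kept their direction and side of the threshold, 24 changed sign, 2 passed the threshold and 1 count moved. Of those under other settings, 444 kept both, 25 changed sign, 2 passed the threshold, 4 no longer passed it and 11 counts moved. The cause of each change was not tested, except where the setting itself gives it. No value that changed sign was called on either side. The main limits are the 4 or 5 mice in a group, the 26 TRAV9 clonotypes of β5t-KO replicate 2, and copies whose names rest on few bases.

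For the family share (log2), BIT minus WT was 0.30 when only these groups were fitted, and 0.23 to 0.45 with 1 mouse left out. BIT minus β5t-KO was -0.0114 by DESeq2, -0.0205 with at least 2 molecules, -0.16 after thinning, and -0.0523 to 0.10 with 1 mouse left out. BIT minus β5i-KO was -0.0490 after thinning. β5t-KO minus β5i-KO was -0.0788 in molecules, and -0.0251 to 0.19 with 1 mouse left out. For the non-productive share, BIT minus β5i-KO was 0.0020 with TMM and 0.0861 by DESeq2. With 1 mouse left out it ranged from -0.0825 to 0.14, β5i-KO minus WT from -0.21 to 0.25, BIT minus WT from -0.23 to 0.23, and BIT minus β5t-KO from -0.0070 to 0.33.

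Replicate numbers did not pair the mice. Deviations from the group means correlated at -0.359 to 0.212 over 22 pairs of the same number, 6 of them above 0.1, and 1 library correlated best with its own number. With the number as a block, BIT minus WT was 0.44 for the family share (edgeR adjusted p = 0.0117) and 0.18 for the non-productive share, and BIT minus β5i-KO was 0.19 for the non-productive share. For length with the block, β5i-KO minus WT was -0.00588 and β5t-KO minus β5i-KO was 0.0200 residues.

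For CDR3 length in residues, at least 2 molecules gave -0.0321 for β5t-KO minus WT, -0.0561 for β5i-KO minus WT and 0.0239 for β5t-KO minus β5i-KO. Thinning gave -0.0685 for β5i-KO minus WT and 0.0952 for β5t-KO minus β5i-KO. Adding BIT replicate 3 gave 0.0409 for BIT minus WT, 0.0268 for BIT minus β5t-KO and 0.0189 for BIT minus β5i-KO. Weighting gave 0.0125 for BIT minus WT, and nucleotide clonotypes gave 0.0124 for β5t-KO minus β5i-KO. With 1 mouse left out, lengths ranged from -0.0250 to 0.0698 for β5t-KO minus WT, -0.0201 to 0.0776 for β5i-KO minus WT, -0.0725 to 0.0217 for BIT minus WT and -0.0506 to 0.0342 for β5t-KO minus β5i-KO.

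For the bases between V and J, β5t-KO minus β5i-KO was no longer called with at least 2 molecules (-0.35), with the V end from the genome (-0.15), without TRAV9-2 clones (-0.18) and by the exact permutation test (-0.44), and was -0.52 to -0.36 with 1 mouse left out. With the V end from the genome, β5i-KO minus WT was -0.0369 and BIT minus WT -0.0704. BIT minus WT was -0.00689 with nucleotide clonotypes, and -0.0540 to 0.0793 with 1 mouse left out. For log2 molecules per clonotype, β5t-KO minus WT was -0.10 when weighted, and -0.0906 to 0.12 with 1 mouse left out. With 1 mouse left out, BIT minus β5i-KO was -0.13 to 0.0351 and β5t-KO minus β5i-KO was -0.37 to -0.12.

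Sequences called varied most. DESeq2 called 43 for β5t-KO against WT, 12 for β5i-KO against WT, 15 for BIT against WT, 45 for BIT against β5t-KO, 6 for BIT against β5i-KO and 48 for β5t-KO against β5i-KO, 6.82% to 54.5% of the 88 beside 7.04% to 49.4% of all sequences. The filter of 10 CPM in 4 libraries gave 7 for β5t-KO against WT, 6 for BIT against β5t-KO and 7 for β5t-KO against β5i-KO, of 12 TRAV9 sequences, beside 29.1%, 34.9% and 35.1% of all 1774. BIT against β5t-KO gave 50 with TMM (46.8% of all sequences) and 24 when only these groups were fitted (33.9%). BIT against β5i-KO gave 0 to 8 with 1 mouse left out, the 8 without BIT replicate 2 (2.96% of all sequences). Of the 88 sequences, 44 had passed the filter through BIT mice alone.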
